A study of Mus musculus with 2 samples.

Results

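The genes described here are the 37 genes of the mouse mitochondrial genome: 13 for proteins, 2 for ribosomal RNAs and 22 for transfer RNAs. They were chosen by name, as all annotated genes whose symbol starts with mt-, and they are 37 of the annotated mouse genes of the GENCODE M21 set, of which 15324 had a read in at least 1 of 2 libraries. Reads were found for 23 of the 37, for 23 in replicate 2 and for 18 in replicate 1. The other 14, all transfer RNA genes, had 0 reads in both libraries and so allow a level of up to the worth of 3 reads, 1.87 CPM for replicate 2 and 3.76 for replicate 1.

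Total RNA of gastrocnemius, a muscle of the calf, was read as long molecules. It came from female mice of the hybrid strain B6CASTF1/J at 36 days of age, with 2 µg of RNA per library. Both libraries form 1 group, with no treatment and no mutation named, so the values below are levels, their spread between the libraries and the comparison of these 2 libraries, not of conditions. The labels number the libraries as biological replicates and name different females, under a shared donor entry. The deposited counts of reads per transcript model placed 1602272 reads of replicate 2 and 797105 of replicate 1 in annotated mouse genes, and levels are given as CPM, the reads of a gene scaled to the total of those reads.

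The mitochondrial genome is a small circle that codes for subunits of the respiratory chain complexes I, III, IV and of ATP synthase (complex V), and for the ribosomal and transfer RNAs that translate them. Each strand is transcribed as a long precursor, which is cut mostly at the transfer RNAs that lie between the other genes, and the messenger and ribosomal RNAs then receive short poly(A) tails. Most genes are read from the heavy strand. The light strand carries mt-Nd6 and a minority of the transfer RNA genes. RNA made from the heavy strand lies on the plus strand of the mm10 chromosome M, and RNA made from the light strand lies on its minus strand. Muscle fibres of the slow, oxidative kind are known to be rich in mitochondria.

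Several messages of this genome end without a whole stop codon, which their poly(A) tail completes. The ends below show such messages beside mt-Co1 and mt-Nd5, whose stop codons are whole. Each line gives the final 30 bases of the annotated gene on the plus strand of mm10 chromosome M, from the GENCODE M21 transcript sequences, with the bases after the final amino acid codon in capitals.
mt-Cytb, chrM:15259-15288: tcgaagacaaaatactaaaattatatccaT
mt-Co3, chrM:9361-9390: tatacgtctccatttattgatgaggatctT
mt-Nd4, chrM:11515-11544: gtccaaaactaattacaggcctgacaataT
mt-Co1, chrM:6843-6872: gaggaaccaacctatgtaaaagtaaaaTAA
mt-Nd5, chrM:13536-13565: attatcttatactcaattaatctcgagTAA

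All 37 genes together took 16154 reads in replicate 2 against 2508 in replicate 1. Of the reads placed in annotated genes, that is 1.01% in replicate 2 (95% exact Clopper-Pearson interval 0.993 to 1.02%) and 0.315% in replicate 1 (0.302 to 0.327%), with a mean of 0.661 ± 0.490% (SD, n = 2). These intervals, like all intervals below, cover counting error only, since the reads carry no molecular identifiers. The SD between the libraries was far wider than either interval. In a bulk library, fewer mitochondria and less RNA per mitochondrion cannot be told apart.

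Complex III has 1 gene on this genome, mt-Cytb, for cytochrome b (chrM:14145-15288, plus strand). It had 6902 reads in replicate 2 and 990 in replicate 1, or 4308 and 1242 CPM, and held rank 25 among all genes in replicate 2 and rank 58 in replicate 1. It took 42.7% of all mitochondrial reads in replicate 2 and 39.5% in replicate 1. No other gene of this genome had more reads in either library.

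Complex IV, cytochrome c oxidase, has 3 subunits here, and they took 28.7% of the mitochondrial reads in replicate 2 and 28.2% in replicate 1. The catalytic subunit mt-Co1 (chrM:5328-6872) had 3567 reads in replicate 2 and 575 in replicate 1, or 2226 and 721 CPM. The copper-binding subunit mt-Co2 (chrM:7013-7696) had 524 reads in replicate 2 and 65 in replicate 1. The third core subunit, mt-Co3 (chrM:8607-9390), had 552 reads in replicate 2 and 67 in replicate 1. Together mt-Cytb and mt-Co1 held 64.8% of the mitochondrial reads in replicate 2 and 62.4% in replicate 1. Shares of the mitochondrial reads, here and for the other genes and complexes, leave out reads placed on nuclear copies, described below.

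Complex I, NADH dehydrogenase, has 7 subunits here, with 18.6% of the mitochondrial reads in replicate 2 and 21.9% in replicate 1. The membrane-arm subunit mt-Nd1 (chrM:2751-3707) led them, with 1115 reads in replicate 2 and 217 in replicate 1. It was followed by mt-Nd2 with 826 reads in replicate 2 and 153 in replicate 1, and by mt-Nd4 with 735 reads in replicate 2 and 123 in replicate 1. The longest message, mt-Nd5, had 283 reads in replicate 2 and 49 in replicate 1. The short messages mt-Nd3 and mt-Nd4l had 30 and 14 reads in replicate 2, and 6 and 1 in replicate 1. Of mt-Nd6, the only protein gene read from the light strand, 5 reads were found in replicate 2 and 1 in replicate 1.

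The complex V subunit mt-Atp6 (chrM:7927-8607) had 777 reads in replicate 2 and 111 in replicate 1. Its partner mt-Atp8 (chrM:7766-7969), whose reading frame overlaps that of mt-Atp6, had 3 reads in replicate 2 and 0 in replicate 1. The same holds for mt-Nd4l (chrM:9877-10173) and mt-Nd4 (chrM:10167-11544), which also overlap. In mammals each of these pairs is carried by 1 shared message, and how reads of such a message were assigned to its genes was not tested. The levels of mt-Atp8 and mt-Nd4l taken alone are uncertain.

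Of the ribosomal RNAs, mt-Rnr2 (chrM:1094-2675), of the large subunit, had 579 reads in replicate 2 against 113 in replicate 1, and mt-Rnr1 (chrM:70-1024), of the small subunit, had 152 in replicate 2 and 23 in replicate 1. They made up 4.53% of the mitochondrial reads in replicate 2 and 5.42% in replicate 1. How the RNA was primed is not given in the sources used here, so these shares describe the reads and not the ribosomal RNA content of the tissue.

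Transfer RNA genes gave 90 reads in replicate 2 and 14 in replicate 1, or 0.557% of the mitochondrial reads in replicate 2 and 0.558% in replicate 1. Reads fell on 8 of the 22 genes in replicate 2 but on 4 of the 22 in replicate 1. Most lay on 2 genes that directly adjoin a protein gene, as do mt-Tl1, mt-Tg and mt-Tl2, which had 0 reads in both libraries. The methionine transfer RNA gene mt-Tm (chrM:3845-3913), which ends 1 base before mt-Nd2 begins, had 46 reads in replicate 2 and 5 in replicate 1. The threonine gene mt-Tt (chrM:15289-15355), which begins 1 base after mt-Cytb ends, had 30 reads in replicate 2 and 7 in replicate 1. Both are shown whole, on the plus strand of mm10, because they hold most transfer RNA reads.
mt-Tm: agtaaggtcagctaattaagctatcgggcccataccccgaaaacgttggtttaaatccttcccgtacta
mt-Tt: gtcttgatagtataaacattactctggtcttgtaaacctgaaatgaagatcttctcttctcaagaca

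The isoleucine gene mt-Ti had 7 reads in replicate 2 against 1 in replicate 1, and the arginine gene mt-Tr had 3 in replicate 2 and 0 in replicate 1. The glutamine gene mt-Tq had 1 read in each library. The genes mt-Tw, mt-Tc and mt-Ts1, for tryptophan, cysteine and a serine transfer RNA, had 1 read each in replicate 2 and 0 in replicate 1. At 1 to 7 reads these levels are near the limit of 3 reads, and no order among them can be read. No read was found for mt-Tf, mt-Tv, mt-Tl1, mt-Ta, mt-Tn, mt-Ty, mt-Td, mt-Tk, mt-Tg, mt-Th, mt-Ts2, mt-Tl2, mt-Te and mt-Tp.

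**Figure D1:**
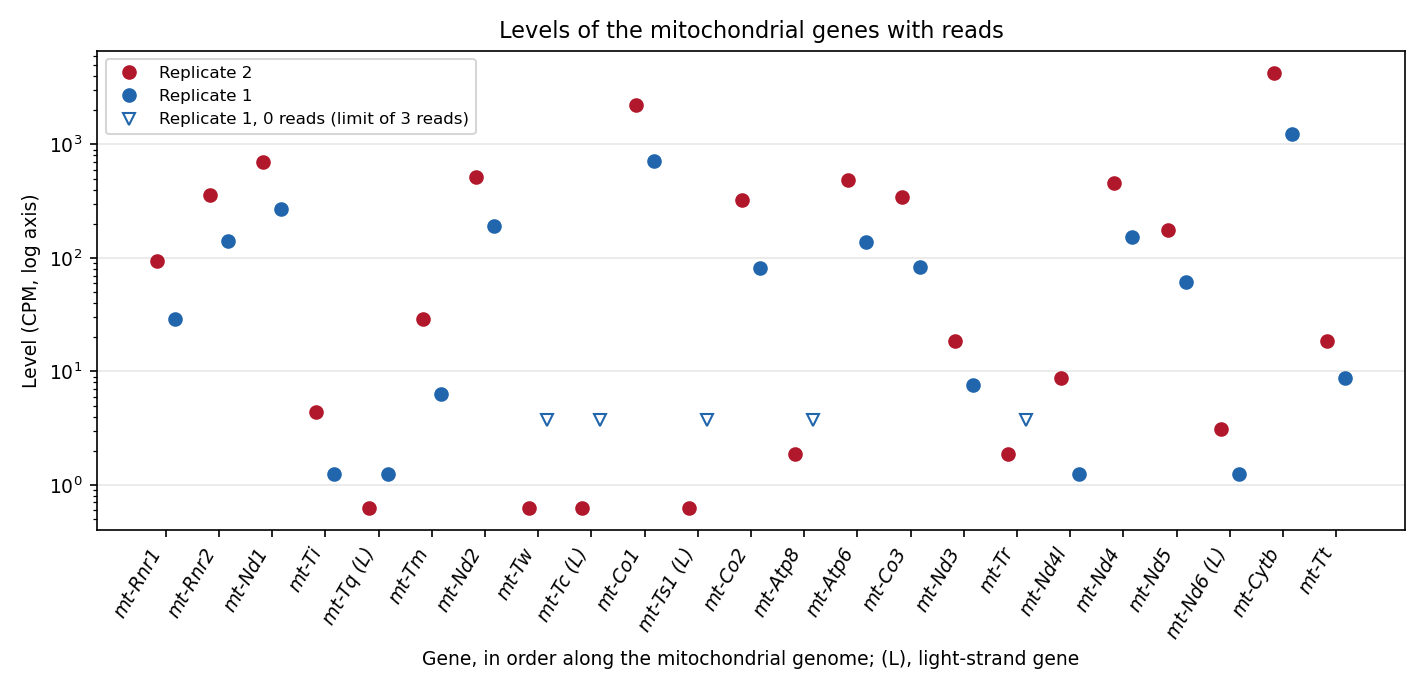
Level of each mitochondrial gene with a read, in CPM on a log axis, in the order of the genes along the genome. Filled points are the 2 libraries, replicate 2 left of replicate 1, and open triangles mark the worth of 3 reads where replicate 1 had 0 reads. Replicate 2 lies above replicate 1 for all 15 genes with at least 10 reads summed.

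Per kilobase of gene, the level of mt-Cytb was 3765 CPM per kb in replicate 2 and 1086 in replicate 1 (mean 2426 ± 1895, SD, n = 2). For mt-Co1 it was 1441 CPM per kb in replicate 2 and 467 in replicate 1, and for mt-Nd1 727 in replicate 2 and 284 in replicate 1. These were the 3 highest levels per kb in both libraries, and the same genes had the most reads. The ribosomal RNAs lay lower, mt-Rnr2 at 228 CPM per kb in replicate 2 and 89.6 in replicate 1, and mt-Rnr1 at 99.3 in replicate 2 and 30.2 in replicate 1. At the low end, mt-Nd6 stood at 6.01 CPM per kb in replicate 2 and 2.42 in replicate 1. A long read can span a whole message, so dividing by length can change the order of genes. In replicate 2, mt-Rnr2 had 579 reads, above mt-Co2 at 524 and mt-Co3 at 552. Yet its level per kb was lower than theirs, at 478 for mt-Co2 and 439 for mt-Co3. The same held in replicate 1. With the reads on nuclear copies, described below, added to them, mt-Co2 had 1066 reads and mt-Co3 1083 in replicate 2. In replicate 1 they then had 132 and 130, against 113 for mt-Rnr2. Counted so, mt-Rnr2 lay below both in reads as well, in both libraries.

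In the order by mean level per kb, the 15 protein and ribosomal RNA genes form 14 neighbouring pairs. In 3 of these pairs the exact Poisson intervals of the neighbours were apart in both libraries: mt-Cytb above mt-Co1, mt-Co1 above mt-Nd1, and mt-Rnr2 above mt-Nd5. In another 3 pairs the order turned round between the libraries, namely mt-Co3 and mt-Nd4, mt-Nd5 and mt-Rnr1, and mt-Atp8 and mt-Nd6. Within these pairs the intervals overlapped in both libraries, except for mt-Co3 and mt-Nd4, which were apart in replicate 2 and overlapped in replicate 1. Between the libraries the CPM of the 15 genes had a Spearman rank correlation of 0.988, given as a description across genes that share a genome and 2 libraries. The steep gradient in level per kb from mt-Cytb to mt-Nd6 was thus present in each library. Some neighbours changed order between the libraries, but their intervals overlapped in replicate 1. The middle of the order also depended on the division by length and on whether reads on nuclear copies were counted.

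The level per kb had a Spearman rho of 0.52 with gene length over the 15 genes, and of -0.23 with the share of A in the gene, again as a description. With reads on nuclear copies, described below, added to the levels, these values were 0.40 and -0.30. The heavy-strand protein genes held 5.88 to 16.1% G and 22.1 to 29.97% C, against 28.1% G and 5.97% C in mt-Nd6, with the shares of G and C turned round.

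For 7 of the protein genes, reads were also placed on copies in the nuclear genome. A block of chromosome 1 (mm10 chr1:24611535-24616197, minus strand, 4663 bases) holds 7 annotated pseudogenes that copy mt-Co1, mt-Co2, mt-Atp6, mt-Co3, mt-Nd3, mt-Nd4l and mt-Nd4, in that order. Chromosome 2 holds a further 2 annotated copies, Gm13340 of mt-Co1 and Gm13341 of mt-Co2. The 9 copies took 2222 reads in replicate 2 and 391 in replicate 1. The shares of the mitochondrial reads given above leave these reads out. Counting them would lower the share of mt-Cytb, which has no annotated copy, and raise that of complex V. The start of mt-Co3 and of its copy is shown because reads from such a stretch carry no base that tells the origins apart.
mt-Co3, chrM:8607-8666, plus strand: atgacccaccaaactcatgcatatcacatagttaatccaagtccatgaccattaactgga
Gm28437, chr1:24613912-24613971, minus strand: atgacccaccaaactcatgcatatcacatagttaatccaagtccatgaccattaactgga

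Where a chromosome 1 copy spans all but at most 3 bases of the gene, mitochondrial gene and copy held nearly equal numbers of reads. mt-Co2 had 524 reads and its copy Gm28661 541 in replicate 2, and 65 and 67 in replicate 1, so the copy took 50.8% in replicate 2 (interval 47.8 to 53.8%) and 50.8% in replicate 1 (41.9 to 59.6%). mt-Atp6 had 777 reads and Gm10925 865 in replicate 2, and 111 and 112 in replicate 1, a copy share of 52.7% in replicate 2 (50.2 to 55.1%) and 50.2% in replicate 1 (43.5 to 57.0%). For mt-Co3 the numbers were 552 reads and 531 on Gm28437 in replicate 2, and 67 and 63 in replicate 1. These 3 copies have no mismatch to the mitochondrial gene over their whole length.

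The short messages had few reads on either side. mt-Nd3 had 30 reads and its copy Gm28438, which differs by T3C counted from the first base of mt-Nd3, had 27 in replicate 2, against 6 and 3 in replicate 1. mt-Nd4l had 14 reads and its identical copy Gm10222 had 18 in replicate 2, against 1 and 0 in replicate 1. Summed over the 5 whole copies on chromosome 1, 51.1% of the reads lay on the copies in replicate 2 (49.5 to 52.7%) and 49.5% in replicate 1 (45.0 to 54.0%).

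The copies of parts of genes held smaller shares. Gm28439, identical to 876 of the 1378 bases of mt-Nd4, had 32 reads in replicate 2 and 4 in replicate 1, a share of 4.17% in replicate 2 and 3.15% in replicate 1. Gm29216, a copy of the final 492 of the 1545 bases of mt-Co1, had 40 reads against 3567 on mt-Co1 in replicate 2, but 126 against 575 in replicate 1, a share of 1.11% in replicate 2 (0.793 to 1.51%) and 18.0% in replicate 1 (15.2 to 21.02%). It is the only chromosome 1 copy whose share differed between the libraries beyond counting error. Its sequence and that of mt-Co1 are shown over its first 60 bases, which hold all 6 differences, in capitals. Counted from the first base of mt-Co1 they are T1056A, C1057T, A1059G, A1060G, C1062A and A1066T, with the base of mt-Co1 given first.
mt-Co1, chrM:6381-6440, plus strand: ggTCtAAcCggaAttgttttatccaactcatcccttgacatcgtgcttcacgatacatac
Gm29216, chr1:24616138-24616197, minus strand: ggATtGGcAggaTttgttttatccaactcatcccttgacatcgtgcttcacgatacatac

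Beside Gm29216, in the gap between it and the copy of mt-Co2, the annotation deposited for replicate 2 holds an unannotated model on the same strand (chr1:24615565-24615706), with 916 reads. Replicate 1 has no model there. The gap is 140 bases long, the same as the stretch between mt-Co1 and mt-Co2 on chromosome M, where the light-strand gene mt-Ts1 and the heavy-strand gene mt-Td lie. Counted with the model, the locus beside mt-Co1 held 956 reads in replicate 2 and 126 in replicate 1, or 21.1% of the reads of locus and gene in replicate 2 (20.0 to 22.4%) and 18.0% in replicate 1 (15.2 to 21.02%). With the model counted, the intervals of the libraries overlapped. Whether those reads came from RNA of mt-Co1 was not tested.

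**Figure D2:**
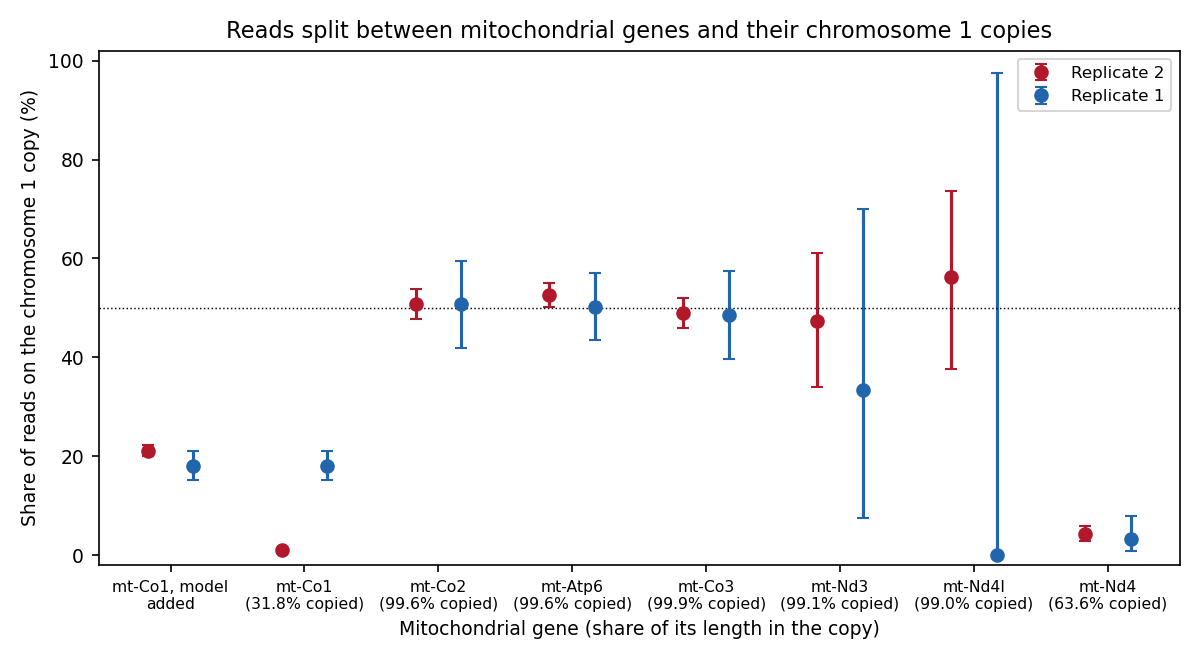
Share of reads on the chromosome 1 copy, in percent of the reads of gene and copy, for each copied mitochondrial gene, replicate 2 left of replicate 1. Bars are 95% exact intervals and the dotted line marks 50%. The leftmost pair adds the 916 reads of the unannotated model beside the copy of mt-Co1. The intervals of the chromosome 1 copies of whole genes all include 50% except that of mt-Atp6 in replicate 2, which starts at 50.2%, and those of parts of genes lie lower.

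On chromosome 2, Gm13340, a copy of the whole of mt-Co1 at 97.6% identity, had 167 reads in replicate 2 and 16 in replicate 1. Gm13341, a copy of mt-Co2, had 1 read in replicate 2 and 0 in replicate 1. When the reads of all annotated copies were added to their genes, mt-Atp6 stood at 1505 CPM per kb in replicate 2 and 411 in replicate 1, above mt-Nd1 in both libraries. For mt-Co2 the level became 973 CPM per kb in replicate 2 and 242 in replicate 1, and for mt-Co3 it became 862 and 208. Both then lay above mt-Nd1 per kb in replicate 2 and below it in replicate 1, while in reads both lay below mt-Nd1 in both libraries. The level per kb of mt-Cytb, which has no annotated copy, remained the highest. It was 2.47 times that of mt-Co1 with its copies in replicate 2 and 1.86 times in replicate 1.

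**Figure D3:**
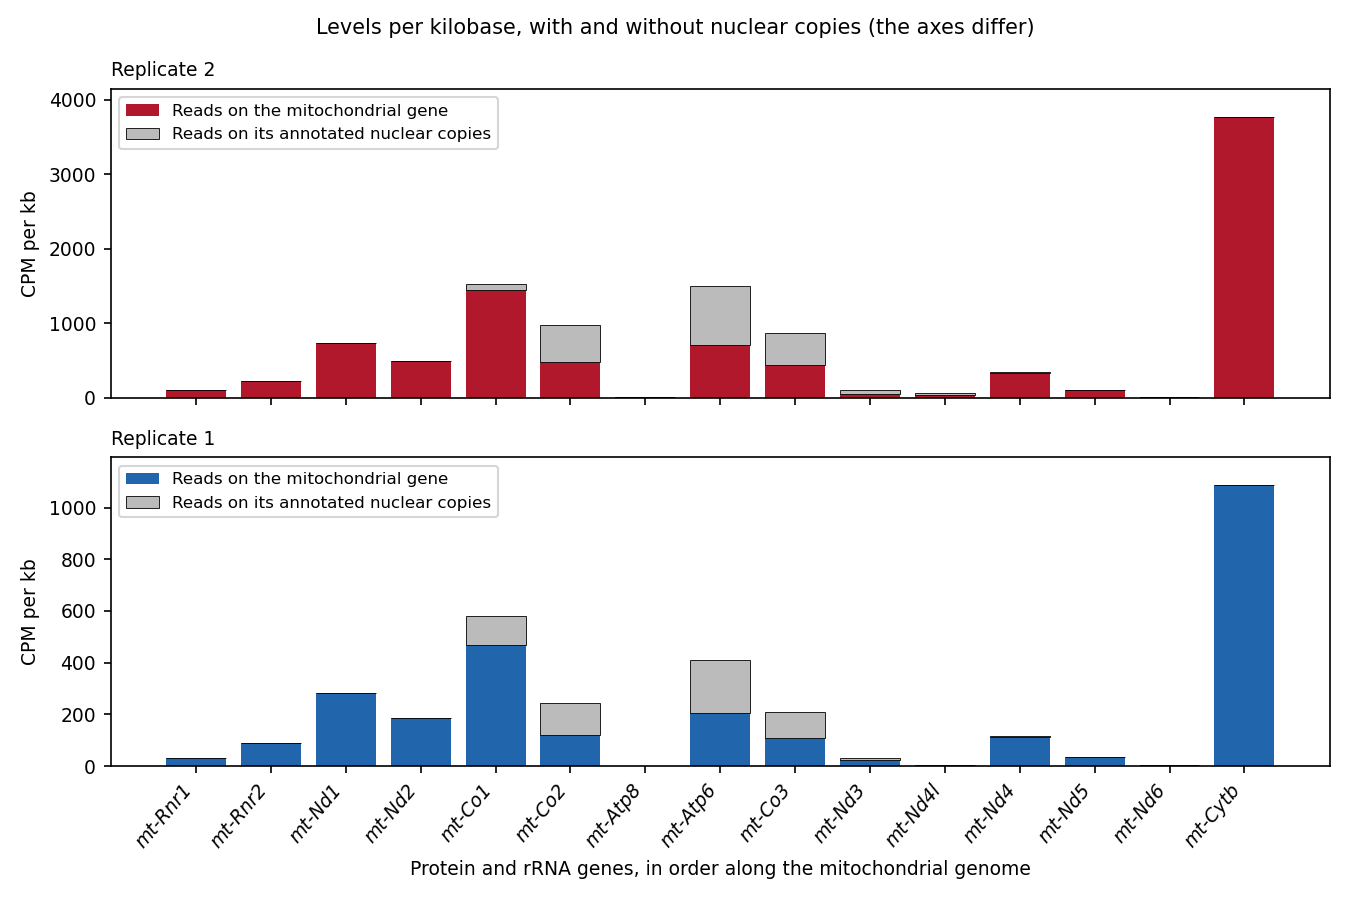
Level per kilobase of the 13 protein and 2 ribosomal RNA genes in CPM per kb, replicate 2 above replicate 1, with axes that differ. Coloured bars are reads placed on the mitochondrial gene, and grey bars are reads placed on its annotated nuclear copies. The grey part about doubles mt-Co2, mt-Atp6 and mt-Co3 and is the smaller part for mt-Co1 and mt-Nd4.

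Almost all reads were RNA of the heavy strand. The 28 genes read from it took 16146 of 16154 reads in replicate 2 (99.95%) and 2506 of 2508 in replicate 1 (99.92%), while the 9 genes read from the light strand took 8 reads in replicate 2 against 2 in replicate 1. Of these 8 and 2 reads, mt-Nd6 held 5 in replicate 2 and 1 in replicate 1, and the rest fell on the transfer RNA genes mt-Tq, mt-Tc and mt-Ts1. With models outside the annotation included, the plus strand held 16403 of 16555 reads on chromosome M in replicate 2 (99.08%) and 2569 of 2589 in replicate 1 (99.23%). Reads of the light strand therefore lay mainly outside annotated genes, 144 of 152 in replicate 2 and 18 of 20 in replicate 1.

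Within annotated genes, every read was in a model of the class Known, which matches an annotated transcript. That held for 16154 of 16154 reads in replicate 2 and 2508 of 2508 in replicate 1. Among all other annotated genes, 67.2% of reads in replicate 2 and 66.5% in replicate 1 were in Known models. Among other genes that have only single-exon transcripts, as the mitochondrial genes do, the share was 94.6% in replicate 2 (94.3 to 94.8%) and 98.7% in replicate 1 (98.5 to 98.9%), below the exact lower limits for the mitochondrial genes of 99.98% in replicate 2 and 99.85% in replicate 1. No incomplete splice match, no new combination of splice sites and no Genomic model was assigned to a mitochondrial gene in either library. Genes of a single exon have no annotated splice sites, and how far the Known share follows from the rules of the classes was not tested.

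All models on chromosome M have 1 exon. No model spanned 2 or more protein or ribosomal RNA genes on their own strand, which by 3 reads allows up to 0.0181% of the chromosome M reads in replicate 2 and 0.116% in replicate 1. Models of annotated genes carry the annotated start and end, so a read that ran past a gene, or covered only a piece of it, is not visible in these files. Reads that covered both mt-Atp8 and mt-Atp6, or both mt-Nd4l and mt-Nd4, likewise cannot be seen as such.

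Unannotated models numbered 22 in replicate 2 and 12 in replicate 1, and held 401 reads in replicate 2 (2.42% of the chromosome M reads) and 81 in replicate 1 (3.13%). Of their ends, 23 of the 44 in replicate 2 and 16 of the 24 in replicate 1 lay at an annotated gene end. Some neighbouring models share a bound, as at chrM:5497 in replicate 2. The bounds of unannotated models, here and below, therefore need not be ends of RNA molecules. Models opposite 2 or more genes numbered 6 in replicate 2, with 205 reads, and 3 in replicate 1, with 53 reads. A pair of models had identical bounds in both libraries, those opposite mt-Rnr2 (chrM:1094-2675) and opposite the proline gene mt-Tp (chrM:15356-15422).

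The largest heavy-strand model outside the annotation lay opposite mt-Nd6. It began at the final base of mt-Nd5 in both libraries and crossed mt-Nd6 and the glutamate gene mt-Te. In replicate 2 it ended at the first base of mt-Te, a minus-strand gene (chrM:13565-14139). In replicate 1 it ended at the first base of mt-Cytb (chrM:13565-14145). It held 126 reads in replicate 2 and 25 in replicate 1, against 5 and 1 reads of mt-Nd6 itself. So 96.2% of the reads across mt-Nd6 in each library were antisense to it (91.3 to 98.7% in replicate 2, 80.4 to 99.9% in replicate 1). Per read of mt-Nd5, whose printed end marks where the model begins, there were 0.445 such reads in replicate 2 and 0.510 in replicate 1.

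Other heavy-strand models lay opposite the light-strand transfer RNA genes between mt-Nd2 and mt-Co1. In replicate 2, a model opposite the alanine and asparagine genes mt-Ta and mt-Tn (chrM:5016-5192) held 67 reads and a model opposite mt-Tc and the tyrosine gene mt-Ty (chrM:5192-5326) held 2. In replicate 1, the corresponding models chrM:5016-5159 and chrM:5159-5326 held 20 and 8. Together they took 0.417% of the chromosome M reads in replicate 2 (0.324 to 0.527%) and 1.08% in replicate 1 (0.720 to 1.56%), with intervals that do not overlap. Opposite mt-Tp, which follows mt-Tt, there were 14 reads in replicate 2 and 2 in replicate 1.

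Light-strand RNA outside the annotation lay mostly in the control region between mt-Tp and the end of the sequence, where transcription of both strands starts. Minus-strand models there held 91 reads in replicate 2 and 10 in replicate 1, and plus-strand models held 48 in replicate 2 and 8 in replicate 1. Elsewhere, minus-strand models lay opposite heavy-strand genes, with 53 reads in 13 models in replicate 2 and 8 reads in 5 models in replicate 1. The model with most of these reads lay inside mt-Nd4 (chrM:10533-10821), with 15 reads in replicate 2, and a model from the same base to chrM:10822 had 1 read in replicate 1.

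At the chromosome 1 copy of mt-Nd4 an antisense model (chr1:24611535-24612044, plus strand) held 17 reads in replicate 2, and none was found in replicate 1. In the numbering of chromosome M that stretch is 10533 to 11042, so it shares with the antisense model in mt-Nd4 the end at 10533, which is the 3′ end of both, and not the other end. Opposite mt-Rnr2, a model with the bounds of the gene held 10 reads in replicate 2 and 4 in replicate 1. Opposite mt-Co1, 4 models held 13 reads in replicate 2 and none was found in replicate 1. A model opposite mt-Cytb and mt-Tt (chrM:14139-15355) held 7 reads in replicate 2. In all, models opposite an annotated gene held 262 reads in replicate 2 (1.58%) and 63 in replicate 1 (2.43%), a mean of 2.01 ± 0.60% of the chromosome M reads (SD, n = 2).

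**Figure D4:**
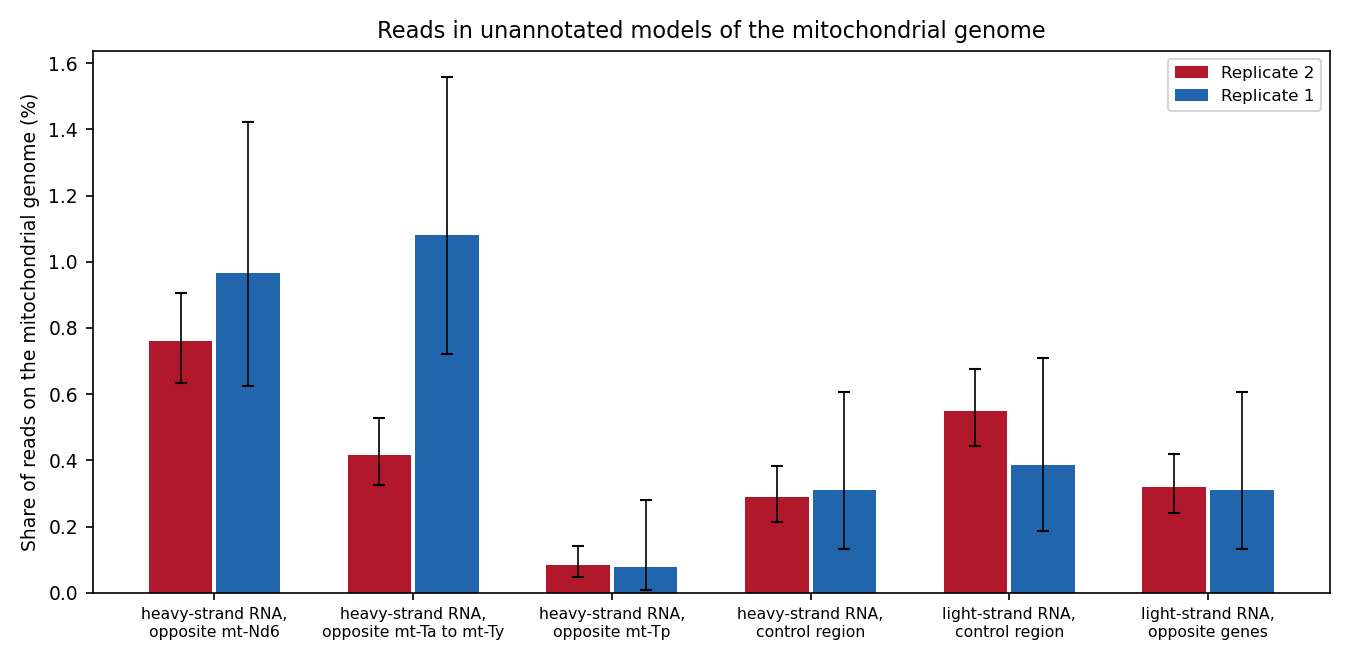
Share of all reads on the mitochondrial genome held by each kind of unannotated model, in percent, replicate 2 left of replicate 1, with 95% exact intervals. Heavy-strand RNA is plus-strand RNA and light-strand RNA is minus-strand RNA. The intervals of the libraries are apart only for the models opposite mt-Ta to mt-Ty, at 0.417% in replicate 2 and 1.08% in replicate 1.

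The libraries were compared gene by gene with Fisher's exact test, two-sided, with Benjamini-Hochberg adjustment over the 8096 genes whose reads in both libraries summed to at least 10. Genes with an adjusted p under 0.05 and a CPM ratio of at least 2-fold were called, and over all genes 11.3% were called, 5.78% as higher and 5.47% as lower in replicate 2. Of the mitochondrial genes 15 could be tested, and 12 were higher and 0 lower in replicate 2. The other 22 had fewer than 10 reads summed, 8 with some reads and 14 with 0. The median ratio of the 15, replicate 2 over replicate 1, was 3.09, against 1.04 over all genes tested, and all 15 ratios were above 1. The test compares these 2 libraries, and with 1 group it gives no measure of the spread between animals.

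Among protein genes, mt-Cytb was 3.47-fold higher in replicate 2 (95% exact interval 3.24 to 3.71). mt-Co1 was 3.09-fold higher (2.83 to 3.38; adjusted p = 4.9e-176 by Fisher's exact test). The highest called ratio of a protein gene was that of mt-Co3 at 4.10-fold (3.18 to 5.36), and mt-Co2 followed at 4.01-fold (3.10 to 5.27). mt-Nd1 had the lowest, 2.56-fold (2.21 to 2.97), and its interval did not meet those of mt-Cytb, mt-Co3 and mt-Co2. All protein genes with at least 10 reads summed had ratios above 1, and the intervals of the called ones did not all overlap.

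The 7 complex I genes together had a ratio of 2.72 (2.48 to 2.99), against 3.47 for mt-Cytb, 3.27 for complex IV (3.02 to 3.54) and 3.50 for complex V (2.86 to 4.30). These sums leave out reads placed on nuclear copies, and their ratios with copies were not computed. With annotated copies, mt-Co1, which held most reads of complex IV, had a ratio of 2.62 (2.42 to 2.84), mt-Co2 4.02 and mt-Co3 4.14. mt-Rnr2 was 2.55-fold higher (2.08 to 3.15) and mt-Rnr1 3.29-fold (2.11 to 5.34) in replicate 2. Of the transfer RNA genes, mt-Tm was 4.58-fold higher (1.83 to 14.8; adjusted p = 0.00148 by Fisher's exact test). Not called were mt-Nd3, with a ratio of 2.49 (1.02 to 7.31), mt-Tt, with 2.13 (0.918 to 5.75), and mt-Nd4l, with 6.96 on 15 reads in all.

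**Figure D5:**
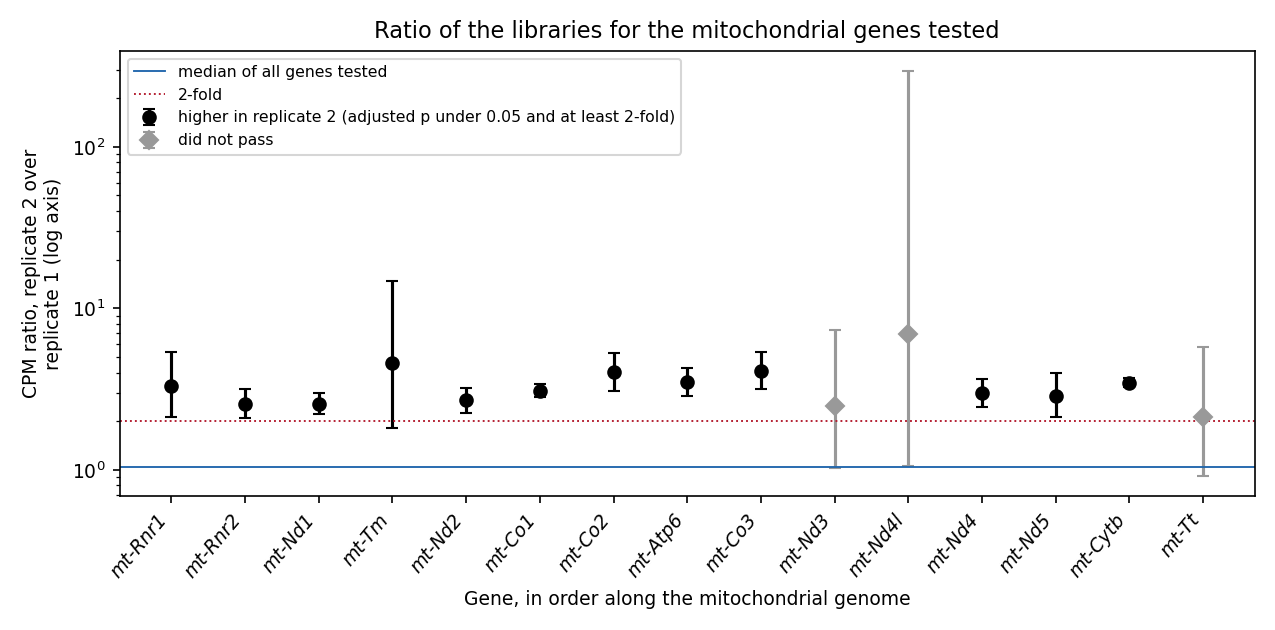
CPM ratio of replicate 2 over replicate 1 on a log axis for the 15 mitochondrial genes tested, in genome order, with 95% exact intervals. Black points were called higher in replicate 2 and grey diamonds were not called. The solid line is the median of all genes tested at 1.04 and the dotted line marks 2-fold. All points lie above the dotted line.

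Adding the copies' reads gave 14 of 15 called, beside 11.2% of all genes tested, with mt-Nd3 at 3.15-fold and mt-Nd4l at 15.9-fold. Without the 7 tested genes that have an annotated copy, 7 of 8 were called, beside 11.2% of all genes tested. For mt-Co1 the ratio was 2.62 with its annotated copies, and 3.25 (3.01 to 3.53) when the 916-read model was counted too.

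Nuclear genes that make and handle mitochondrial RNA had median ratios nearer to 1. Of 17 genes for transcription and replication of the mitochondrial genome, 13 were tested, with a median ratio of 1.31. Of the 13, 2 were higher and 0 lower in replicate 2, beside 5.78% higher and 5.47% lower over all genes tested. Ssbp1, the single-stranded DNA-binding protein of the replication fork, had 732 reads in replicate 2 and 147 in replicate 1, a 2.48-fold difference (adjusted p = 2.2e-26, Fisher's exact test). Tefm, the elongation factor of mitochondrial RNA polymerase, had 43 reads in replicate 2 and 7 in replicate 1, or 3.06-fold. The packaging and initiation factor Tfam had 43 reads in replicate 2 and 20 in replicate 1, with a ratio of 1.07 (0.616 to 1.92), and the polymerase Polrmt had 21 and 13. The other genes of this list with the highest mean levels were Mrpl12, a ribosomal protein that also binds the polymerase, with 205 CPM in replicate 2 and 110 in replicate 1, and the replicative helicase Twnk, with 62.4 and 33.9. Their ratios of 1.85 and 1.84 missed the 2-fold minimum.

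Of 32 genes for processing, modification, polyadenylation and decay of mitochondrial RNA, 29 were tested, with a median ratio of 1.12. Of the 29, 1 was higher and 0 were lower, beside 5.78% higher and 5.47% lower over all genes tested. The gene called, Rpusd3, for a mitochondrial pseudouridine synthase, had 22 reads in replicate 2 and 2 in replicate 1. Slirp, which with Lrpprc binds and stabilises the messages, had 580 reads in replicate 2 and 154 in replicate 1, a ratio of 1.87 that missed the 2-fold minimum. Lrpprc itself had a ratio of 0.69 (0.440 to 1.08). Hsd17b10, a subunit of the RNase P that cuts the 5′ ends of transfer RNAs, had 166 CPM in replicate 2 and 96.6 in replicate 1, a ratio of 1.72. Fastk, of the family of proteins that bind mitochondrial RNA, had the highest mean level of this list, 341 ± 11.4 CPM (SD, n = 2).

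Markers of fibre and cell types differed between the same libraries. The 8 markers of slow and oxidative fibres summed to 9456 CPM in replicate 2 and 47.7 CPM in replicate 1, with 8 of 8 called higher. The myosin genes Myh7, Myh2, Myl2 and Myl3 had 0 reads in replicate 1, and Tnnt1, Tnni1, Tnnc1 and myoglobin, Mb, had 1 to 24. The 4 markers of fast glycolytic fibres summed to 25146 CPM in replicate 2 and 39803 CPM in replicate 1, with 0 higher and 1, Actn3, lower. All 5 general skeletal muscle markers were detected in both libraries and 0 were called. Blood markers summed to 550 CPM in replicate 2 and 2543 CPM in replicate 1, with 4 of 4 globin genes lower, and those of adipocytes to 68.7 and 380 CPM, with 2 of 2 tested, Adipoq and Cfd, lower and the brown adipocyte marker Ucp1 at 0 in both.

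Of the endothelial markers 0 of 3, of the Schwann cell markers 1 of 2 tested, of the fibroblast markers 1 of 3 and of the immune markers 0 of 2 tested were called, the called ones, Mbp and Col3a1, lower in replicate 2. The part of these differences, and of the greater depth of replicate 2, in the levels of the mitochondrial genes was not tested. After replicate 2 was thinned to the reads of replicate 1, 12 of the 14 mitochondrial genes still tested were called. Of all 7026 genes tested after thinning, 10.2% were called.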

How the data were processed

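The authors deposited, for each library, whole-number read counts per transcript model, not normalized, and a transcript annotation; per the deposited read-me text these rest on mm10 and GENCODE M21, and the class names and identifiers are those of TALON. For the aligner, its handling of reads that fit several places, the filters and the priming, the entry is not given in the sources used here. From these counts, a gene's reads were summed over its models and scaled to CPM on the reads in annotated mouse genes, without spike-ins, antisense and intergenic loci. The worth of 1 read was 0.624 CPM for replicate 2 and 1.25 for replicate 1. A model was taken as opposite a gene when at least 20 bases overlapped on the other strand. Nuclear copies were annotated transcripts with at least 50% of their 25-base words in a mitochondrial gene. They were aligned to it without gaps.

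Libraries were compared by Fisher's exact test as described with the results, which was tested on simulated counts. Those counts carried counting error only, for genes above a higher cut of reads. They therefore do not show how the test behaves under spread between animals or for genes with few reads. Ratio intervals are exact binomial. All 37 genes were kept, with values for those with at least 10 reads summed. Copies and unannotated models with at least 10 reads in each library were named, as were, of the 2 lists of nuclear genes for mitochondrial RNA and DNA, the called members and the 3 with the highest mean CPM. Tfam, Polrmt, Lrpprc and the genes, copies and models with fewer reads were named after their values were seen. The members and gene lists were chosen with earlier results of these data known. Python 3.11.15 (scipy 1.17.1, pandas 2.3.3) and R 4.3.3 (edgeR 4.0.16, DESeq2 1.42.0, for scaling factors only) were used. The Lexogen spike-in transcripts were not analysed here.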

Additional observations from a re-analysis of the deposited data

Results flagged for a closer look

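An unannotated model beside the chromosome 1 copy of mt-Co1 held 916 reads in replicate 2. It lies outside the annotated genes compared. Replicate 1 had no model there. The adjoining copy Gm29216 held 40 reads in replicate 2 and 126 in replicate 1, and whether replicate 1 lacked reads in the gap was not tested.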

How the results depend on the processing

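The count of 12 mitochondrial genes called higher in replicate 2 was the same, with 0 lower, under TMM and DESeq2 scaling, with the total of all reads, without Atp2a1 in the total, with Known models only, without incomplete and Genomic models, with genes of at least 1 read, and with no fold minimum. It was 7 without the genes that have a nuclear copy, since fewer genes were tested, and 14 with copies added. The share of all tested genes called in these settings ranged from 5.19% with genes of at least 1 read to 20.3% with no fold minimum. Over all genes, 468 were higher and 443 lower in the main setting, 411 and 495 under TMM, and 348 and 567 without Atp2a1 in the total. With Known models only, which also changes the counts and leaves 5733 genes tested, the split was 255 and 587. Without Atp2a1 and with Known models only, the median log2 ratio of all genes was -0.07 and -0.08, against 0.06. The share of heavy-strand reads was 99.15% over all models and 99.94% with Known models only, since most light-strand reads were unannotated. The share opposite a gene was 2.01%, and 1.15% where only protein and ribosomal RNA genes counted. Leaving out either library gave a mitochondrial share of 1.01% or 0.315%. Adding the copies' reads moved 5 mean levels by more than 1 SD: mt-Atp6 to 958 CPM per kb, against 458 ± 359, mt-Co2 to 607, against 299 ± 254, mt-Co3 to 535, against 273 ± 235, mt-Nd3 to 67.3, against 37.7 ± 22.7, and mt-Nd4l to 35.7, against 16.8 ± 17.8. No paired analysis was possible because both libraries belong to the same group.

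Depth limits the genes with few reads: no level of mt-Nd6, mt-Atp8 or a light-strand transfer RNA gene can be told from that of 3 reads in replicate 1.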
